A study of Mus musculus with 6 samples.

Results

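The SR and Tra2 splicing factors described here are 10 mouse genes, Srsf1, Srsf2, Srsf3, Srsf4, Srsf5, Srsf6, Srsf7, Srsf11, Tra2a and Tra2b, of 52550 genes in the count table. They were chosen by name, as the serine/arginine-rich factors and their Tra2 relatives, and their gene symbols also picked 38 of 40961 splicing events, which cover 36 gene segments. RNA came from the hippocampus of 6 male wild-type C57BL/6 J mice, all of which received adeno-associated virus into both CA1 areas at 8 weeks of age. In 3 mice the virus carried control shRNA, and in 3 it carried shRNA against L-DL, the long isoform of the RNA-binding protein hnRNP DL. The shRNAs were driven by H1 promoters and the green marker by a CamkIIα promoter, and the control virus was used at a higher titre than the L-DL virus. The characteristics of the samples call the second group a knockdown, whereas their descriptions mark it as a homozygous loss, and it is called L-DL KD here. The paper names hippocampal tissue and does not say how much was taken around the injected areas. The share of infected cells in each library is thus not known. The n = 3 libraries per group stand for the spread between samples that the labels list as separate.

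SR proteins carry RNA recognition motifs and a tail rich in arginine-serine pairs. They bind enhancer sequences in exons, help the spliceosome to recognise the neighbouring splice sites, and are stored in nuclear speckles, from which kinases of the CLK and SRPK families release or import them by phosphorylating the tail. Nearly every gene of the family also holds a poison exon or a retained intron, a highly conserved segment with a stop codon in frame. Transcripts that include it are degraded by nonsense-mediated decay (NMD), the pathway that removes messages whose stop codon lies well before the last exon junction, or are kept in the nucleus, and many SR proteins promote inclusion of their own poison exon.

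The targeted gene was looked at first. Hnrnpdl had 176, 184 and 171 CPM (counts scaled to library size, with TMM factors) in the control libraries, always given in the order of replicates 1 to 3, against 217, 150 and 173 CPM in the L-DL KD libraries. Its log2 fold change was 0.03 (SE 0.12, n = 3 per group, adjusted p = 0.898, edgeR quasi-likelihood test with Benjamini-Hochberg adjustment). The gene count covers all isoforms and cannot show L-DL alone, so that the libraries labelled L-DL KD are named by their labels throughout. Libraries held 16052529 to 17913064 counts on genes. By a chi-square of the counts per gene, L-DL KD replicate 1 differed more from the other L-DL KD libraries (25.6 and 33.3) than these did from each other (10.2), and the control libraries differed by 7.1 to 12.5. Neuronal and CA1 pyramidal marker genes were present in all libraries, as the labelled tissue requires.

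The poison exons of Tra2b and Tra2a are shown because both genes carry one at the same place in the coding sequence and the reading frame ends inside it. The Tra2b exon has 276 nt (chr16:22258986-22259261, GRCm38, minus strand) and is annotated in NMD transcripts and in no coding sequence. The Tra2a exon has 306 nt (chr6:49252803-49253108, minus strand) and is likewise annotated in an NMD transcript. Each line runs 5′ to 3′ from the first base of the exon to the first stop codon in frame, which is in capitals.
Tra2b: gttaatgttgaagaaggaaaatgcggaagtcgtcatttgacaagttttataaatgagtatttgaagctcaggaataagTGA
Tra2a: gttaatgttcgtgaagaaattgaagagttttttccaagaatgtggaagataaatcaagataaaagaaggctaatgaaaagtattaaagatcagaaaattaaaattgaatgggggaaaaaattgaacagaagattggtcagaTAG

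Both exons open with the same 9 bases, gttaatgtt. Tra2 proteins bind GAA-rich RNA, and the motif GAAGAA, searched on the transcript strand only, was in the first 81 bases of both exons. Of 18697 skipped exons of at least that length, 8.18% held it in the same window. Among the other SR and Tra2 exons of that length, the 84-nt coding exon of Srsf6 held it. With the poison exon included, the reading frame shortened from 288 to 38 codons in Tra2b and from 282 to 59 codons in Tra2a.

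Poison exons of Srsf3 and Srsf11, which also end the reading frame, are shown in the same way because their inclusion is described with the splicing results. The Srsf3 exon has 456 nt (chr17:29039454-29039909, plus strand), and the Srsf11 exons have 117 nt (chr3:158023243-158023359, minus strand) and 109 nt (chr3:158024123-158024231, minus strand).
Srsf3: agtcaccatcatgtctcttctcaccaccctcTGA
Srsf11, 117 nt: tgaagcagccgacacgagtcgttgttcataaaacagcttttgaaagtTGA
Srsf11, 109 nt: ttcttttccctggttcagccTGA

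Inclusion left 124 of 164 codons of Srsf3, 156 of 511 codons of Srsf11 with the 117-nt exon, and 147 with the 109-nt exon. In Srsf6, inclusion of its poison exon (chr2:162932815-162933082, plus strand, 268 nt, or 165 nt with an earlier 5′ splice site) left 135 of 339 codons. Unlike the exons above, it overlaps an annotated coding sequence, and its 165-nt form is annotated in a protein-coding transcript. The stop codon ended at base 152 of the exon.
Srsf6: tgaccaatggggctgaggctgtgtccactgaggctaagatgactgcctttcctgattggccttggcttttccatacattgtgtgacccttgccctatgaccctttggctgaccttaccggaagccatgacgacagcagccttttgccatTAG

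In Srsf5 the segment is not an exon but an intron of 1229 nt (chr12:80947866-80949094, plus strand), which holds a stop codon in its first 9 bases and leaves 124 of 270 codons.
Srsf5: gtttgtTGA

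In all, 13 segments of these genes brought a stop codon more than 50 nt before the last exon junction. The 104-nt exon of Srsf2 (chr11:116851648-116851751, minus strand) works otherwise, since it lies behind the stop codon. It leaves all 221 codons, but moves the last exon junction from 7 to 111 nt downstream of the stop codon.

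**Figure D1:**
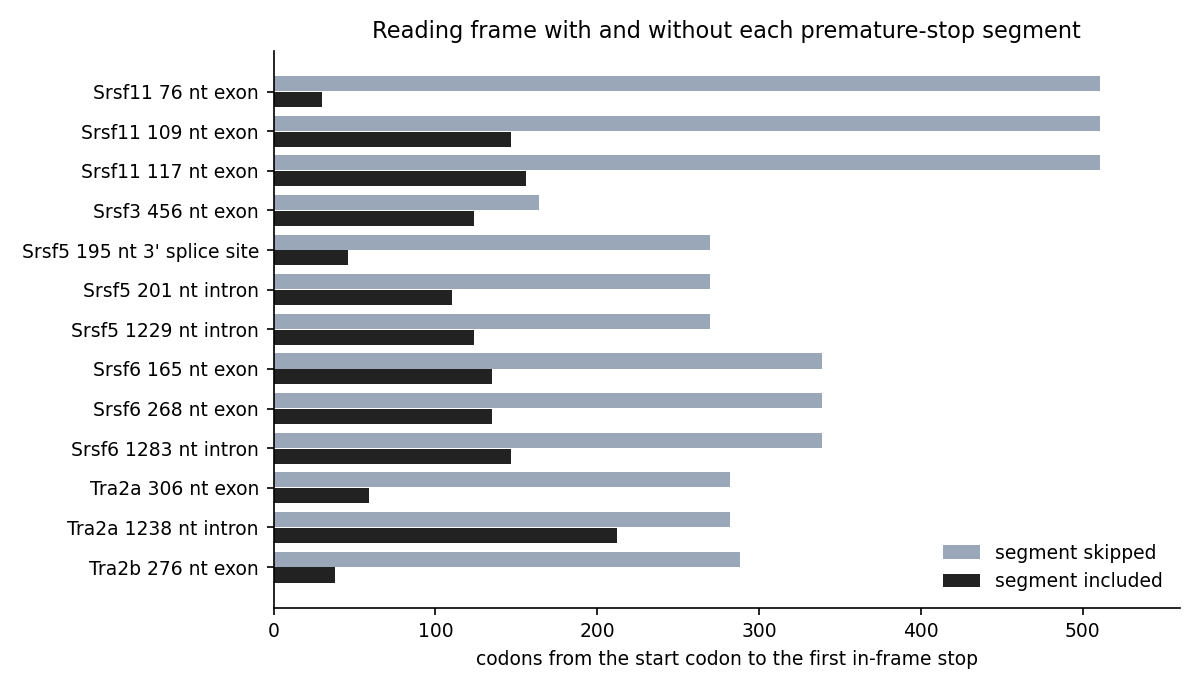
Length of the reading frame, in codons from the start codon to the first stop codon in frame, with each of the 13 premature-stop segments skipped (grey bars) or included (black bars), read from GENCODE transcripts on GRCm38. Tra2b falls from 288 to 38 codons with its poison exon, whereas Srsf3 keeps 124 of 164.

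Levels of the genes were compared with each other as CPM per kb of merged exon. In control hippocampus Srsf5 was the highest, with 85.6 ± 3.97 CPM per kb (SD, n = 3), followed by Srsf6 with 39.2 ± 0.996, Srsf1 with 36.5 ± 0.989 and Srsf7 with 33.3 ± 1.69. Srsf11 (26.6 ± 1.77), Srsf2 (24.8 ± 1.54) and Srsf3 (23.0 ± 0.68) came next, and the libraries of Srsf11 and Srsf2 overlapped, as did those of Srsf2 and Srsf3. Tra2a had 20.7 ± 1.3, Tra2b 10.4 ± 0.137, and Srsf4 was the lowest with 5.11 ± 0.367 CPM per kb. All other neighbours in this order had control libraries that did not overlap.

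The order between the ends depends on the length used. Per kb of the longest coding transcript, Srsf5 stayed first and Srsf4 last, but Tra2a moved from rank 8 to 2 (79.9 CPM per kb) and Srsf1 from 3 to 7. In the libraries labelled L-DL KD, Srsf5 had 96.8 ± 8.1 and Srsf4 4.09 ± 0.316 CPM per kb of merged exon, and they again formed the ends of the range.

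**Figure D2:**
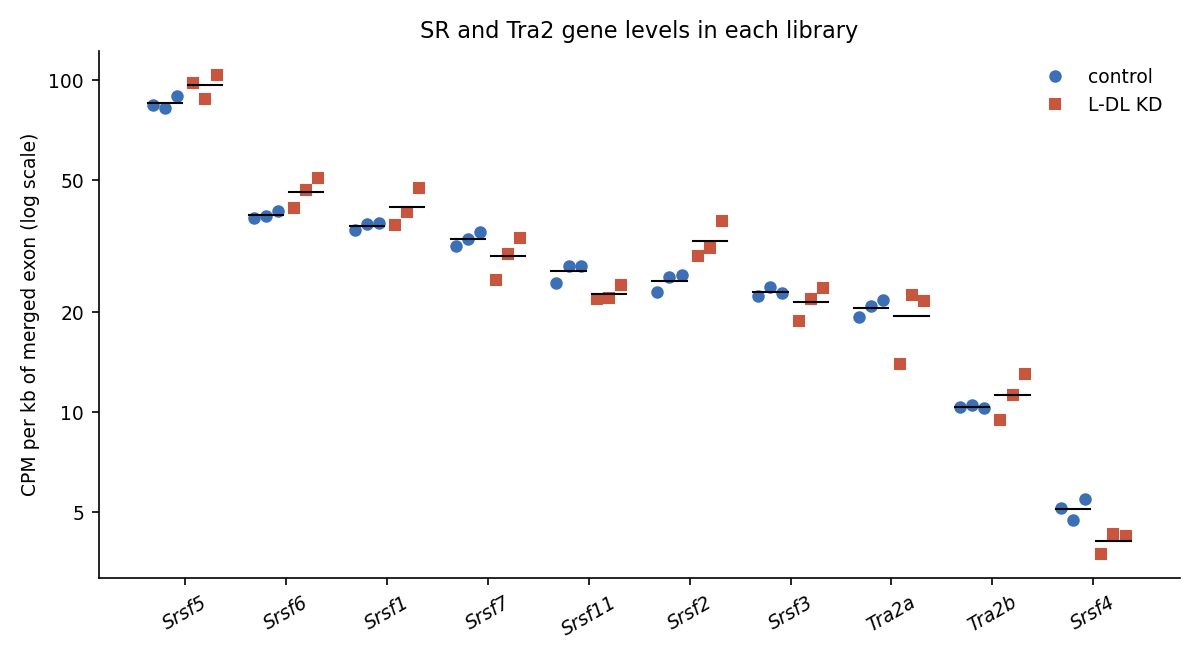
Level of each SR and Tra2 gene as CPM per kb of merged exon (vertical axis, log scale) in each control library (circles) and each library labelled L-DL KD (squares), replicates 1 to 3 from left to right, with the group mean as a line. Srsf5 was the highest and Srsf4 the lowest in both groups, and in most genes the L-DL KD libraries were more spread out.

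The comparison of expression asked whether the genes of these factors had other RNA levels after L-DL KD. Srsf2 rose, and it was the one gene of the 10 to pass an adjusted p of 0.05. Over the whole table, 5379 of 17621 tested genes passed (30.5%), 15.6% upwards and 15.0% downwards, so that the share of 1 in 10 did not exceed the background. Among tested genes within the CPM range of the 10, 40.6% passed. The median log2 fold change of the 10 genes was 0.01, the same as over all tested genes, and the median size of the change was 0.18 against 0.3.

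Srsf2 encodes SC35, the protein whose antibody is widely used to stain nuclear speckles. It had 68.2, 75.5 and 76.6 CPM in control and 87.4, 92.4 and 112 CPM in L-DL KD. All L-DL KD libraries lay above all control libraries. The mean was 32.3% higher, with a log2 fold change of 0.40 (SE 0.10, adjusted p = 0.0202, edgeR with Benjamini-Hochberg adjustment). The call was lost without any one of the control libraries (adjusted p = 0.0824, 0.0582 and 0.0525 in edgeR without replicate 1, 2 or 3), while the log2 fold change stayed between 0.29 and 0.48. Of its 2958 exonic nt, 460 nt overlap Mettl23 and 288 nt overlap Mfsd11, both on the opposite strand, and whether counting used strand is not given in the sources used here.

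Srsf6 and Srsf11 lay just outside the threshold. Srsf6, a splicing factor with a pair of RNA recognition motifs, had 185, 187 and 194 CPM in control and 198, 224 and 244 CPM in L-DL KD. The groups did not overlap, and the log2 fold change was 0.24 (SE 0.08, adjusted p = 0.0687 in edgeR). Srsf11, which encodes the SR-related factor p54, had 208, 233 and 233 CPM in control and 185, 187 and 203 CPM in L-DL KD. Here the L-DL KD libraries lay below the controls, with a log2 fold change of -0.23 (SE 0.08, adjusted p = 0.0502 in edgeR). Without control replicate 1 its adjusted p was 0.0465 and without L-DL KD replicate 3 it was 0.0418 in edgeR, and with DESeq2 on the same genes it was 0.0352, while with scaling by library size alone in edgeR that of Srsf6 was 0.0441.

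Srsf4, also a factor with a pair of RNA recognition motifs, was the other gene whose groups lay apart. It had 18.3, 16.8 and 19.4 CPM in control and 13.3, 15.3 and 15.1 CPM in L-DL KD (log2 fold change -0.32, SE 0.12, adjusted p = 0.0789 in edgeR). Of its 3561 exonic nt, 1532 nt overlap Gm12992 on the opposite strand. Thus in 4 of the 10 genes the groups did not overlap, 2 with higher and 2 with lower values, while over all tested genes 47.2% did so. An unadjusted p under 0.05 was found for the same number, 4, against 41.8% of all tested genes, and a two-sided exact permutation test of 3 against 3 libraries cannot go below 0.1.

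The groups overlapped in the remaining genes. Srsf1, the founding member of the family, which binds purine-rich enhancers, had 202, 211 and 213 CPM in control and 209, 230 and 270 CPM in L-DL KD (log2 fold change 0.18, SE 0.10, adjusted p = 0.193 in edgeR). Srsf5 had 337, 328 and 359 CPM against 392, 351 and 415 CPM (0.18, SE 0.08, adjusted p = 0.135 in edgeR). In both genes the overlap came from a single L-DL KD library, replicate 1 of Srsf1 and replicate 2 of Srsf5. The log2 fold change of Srsf1 was 0.27 without L-DL KD replicate 1 and 0.08 without L-DL KD replicate 3.

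Srsf3, the smallest SR protein and an adaptor for mRNA export, had 177, 188 and 181 CPM in control and 148, 173 and 187 CPM in L-DL KD (log2 fold change -0.10, SE 0.09, adjusted p = 0.424 in edgeR). Srsf7, which is closely related and adds a zinc knuckle, had 112, 118 and 124 CPM against 89.2, 106 and 119 CPM (-0.17, SE 0.11, adjusted p = 0.255 in edgeR). In both genes L-DL KD replicate 1 was the lowest of all 6 libraries. Without that library the log2 fold change was -0.01 in Srsf3 and -0.07 in Srsf7. Without L-DL KD replicate 3 it was -0.18 and -0.27.

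The Tra2 genes encode the mammalian counterparts of the fly protein transformer-2. Tra2a had 134, 145 and 152 CPM in control and 97.1, 157 and 150 CPM in L-DL KD (log2 fold change -0.09, SE 0.17, adjusted p = 0.717 in edgeR). Tra2b had 96.3, 97.3 and 94.7 CPM against 87.7, 104 and 120 CPM (0.11, SE 0.11, adjusted p = 0.471 in edgeR). Control libraries of Tra2b were the tightest of the 10 genes, with a coefficient of variation of 1.32%, whereas its L-DL KD libraries varied by 15.6%. The sign of both genes rested on 1 library, since without L-DL KD replicate 1 the log2 fold change of Tra2a was 0.10, and without replicate 3 that of Tra2b was -0.00. A processed pseudogene, Tra2b-ps, is annotated, and reads that the 2 copies share may have been split by the counting.

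The L-DL KD libraries had a similar order in most of the 10 genes, and replicate 1 also stood apart over all genes by the chi-square. Within the L-DL KD group, replicate 1 was the lowest library for 9 of the 10 genes and replicate 3 the highest for 8. The coefficient of variation was higher in L-DL KD than in control libraries for 9 genes, with 5.29 to 24.4% against 1.32 to 7.18%. How often all tested genes show these patterns was not counted, so that they are not read as particular to the 10. Without L-DL KD replicate 1, which stood apart from the others, 3 of the 10 genes passed in edgeR, namely Srsf2 (adjusted p = 0.00581), Srsf6 (adjusted p = 0.00817) and Srsf1 (adjusted p = 0.0364). Over all tested genes the number that passed also rose without it, from 5379 to 6477.

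**Figure D3:**
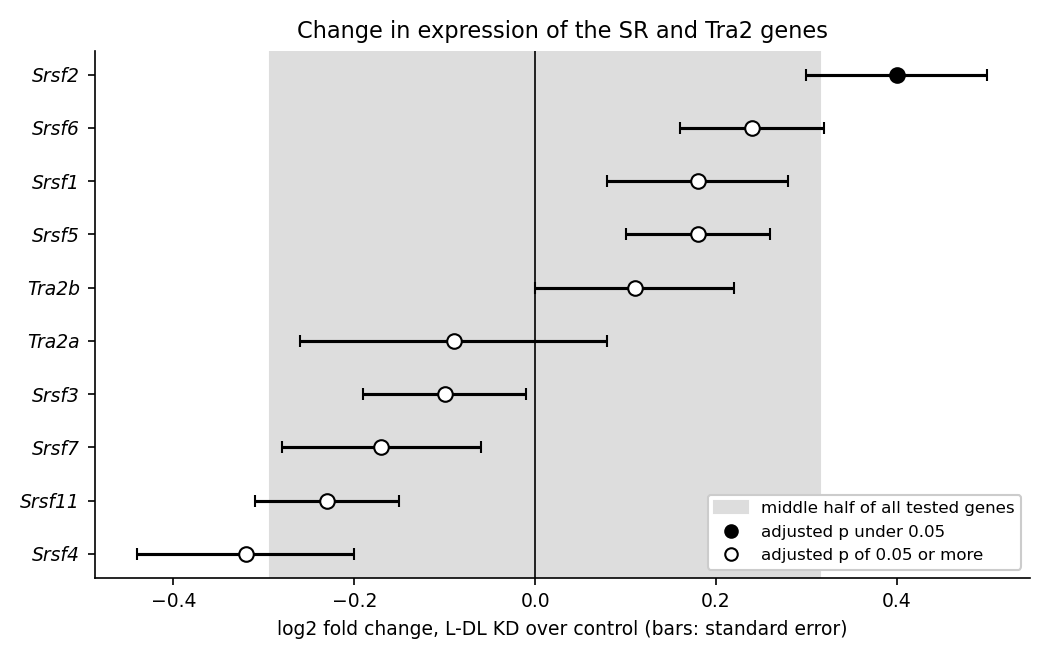
Log2 fold change of each SR and Tra2 gene between the libraries labelled L-DL KD and control (horizontal axis), with the standard error from edgeR as bars (n = 3 per group). The filled point is the gene with an adjusted p under 0.05, Srsf2, and the grey band spans the lower to the upper quartile of all 17621 tested genes (-0.29 to 0.32).

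The genes whose pattern over the 6 libraries was closest to the mean log2 CPM of the 10 were Mss51 (Pearson's r = 0.9934), Zcchc8 (0.9881), Gm15283 (0.9855), Nup98 (0.9844) and Hnrnph1 (0.9826). The mean log2 CPM itself was 6.95, 7.0 and 7.05 in control and 6.84, 7.03 and 7.17 in L-DL KD, with the wider range in the L-DL KD group. These correlations describe 6 libraries that share depth and composition, and they are the highest among all tested genes. Mss51 (mean 1.37 CPM in control and 1.44 in L-DL KD) and Gm15283 (0.756 and 0.843 CPM) were near the lower limit of the counts. Hnrnph1, a G-run binding splicing factor, had a log2 fold change of -0.02 (adjusted p = 0.894 in edgeR), and Zcchc8, a subunit of the nuclear exosome targeting complex, one of 0.01 (adjusted p = 0.943 in edgeR).

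Genes that act with the SR proteins were counted in 4 lists, beside the background of 30.5%. None of the other 3 SR protein genes, Srsf9, Srsf10 and Srsf12, passed in edgeR, and the smallest adjusted p was that of Srsf12 (log2 fold change -0.37, SE 0.15, adjusted p = 0.104). Of 11 genes for SR kinases, their phosphatase and the import receptor, 3 passed. Srpk1 and Srpk2, which phosphorylate SR proteins in the cytoplasm for import, fell (-0.42, SE 0.07, adjusted p = 0.0027, and -0.35, SE 0.08, adjusted p = 0.0115), and Ppp1ca, a catalytic subunit of protein phosphatase 1, rose (0.19, SE 0.06, adjusted p = 0.0413).

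None of Clk1, Clk2, Clk3 and Clk4, the nuclear kinases that release SR proteins from speckles, passed in edgeR. Their log2 fold changes were 0.11, 0.12, 0.02 and 0.30, the last with an SE of 0.11 and an adjusted p of 0.0669. Of 15 genes of NMD and the exon junction complex, 3 passed. Eif4a3, the helicase that anchors the exon junction complex, rose (0.35, SE 0.07, adjusted p = 0.00556), as did the NMD factor Upf3a (0.44, SE 0.08, adjusted p = 0.00636), while Upf2, which bridges the complex to Upf1, fell (-0.31, SE 0.09, adjusted p = 0.0261). Of 14 genes for SR-related and speckle proteins, Srrm1 (-0.24, SE 0.06, adjusted p = 0.0195) and Rnps1 (-0.23, SE 0.06, adjusted p = 0.0251), which are both splicing coactivators, fell, and the other 12 did not pass. The large speckle proteins Son and Srrm2 had log2 fold changes of 0.10 and 0.04.

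Marker genes of cell types moved with the groups. The summed CPM of 12 neuronal markers ranged from 9670 to 10235 in control and from 5823 to 6814 in L-DL KD libraries, and 11 of the 12 passed in edgeR, 10 downwards and Nefl upwards. The 12 microglial markers all rose, with sums of 1440 to 1799 against 3018 to 3931 CPM. Of 6 CA1 pyramidal markers 4 fell, of 6 dentate granule cell markers 3 fell, of 8 astrocyte markers 2 rose and 3 fell, and of 8 oligodendrocyte markers 3 rose. No marker was at 0. The summed CPM of the 10 SR and Tra2 genes ranged from 1538 to 1647 in control and from 1507 to 1836 in L-DL KD libraries, which overlapped. In bulk RNA, fewer cells of a type and less RNA per cell cannot be told apart, and the part of the cell types in the values of Srsf2 and the other genes was not tested.

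**Figure D4:**
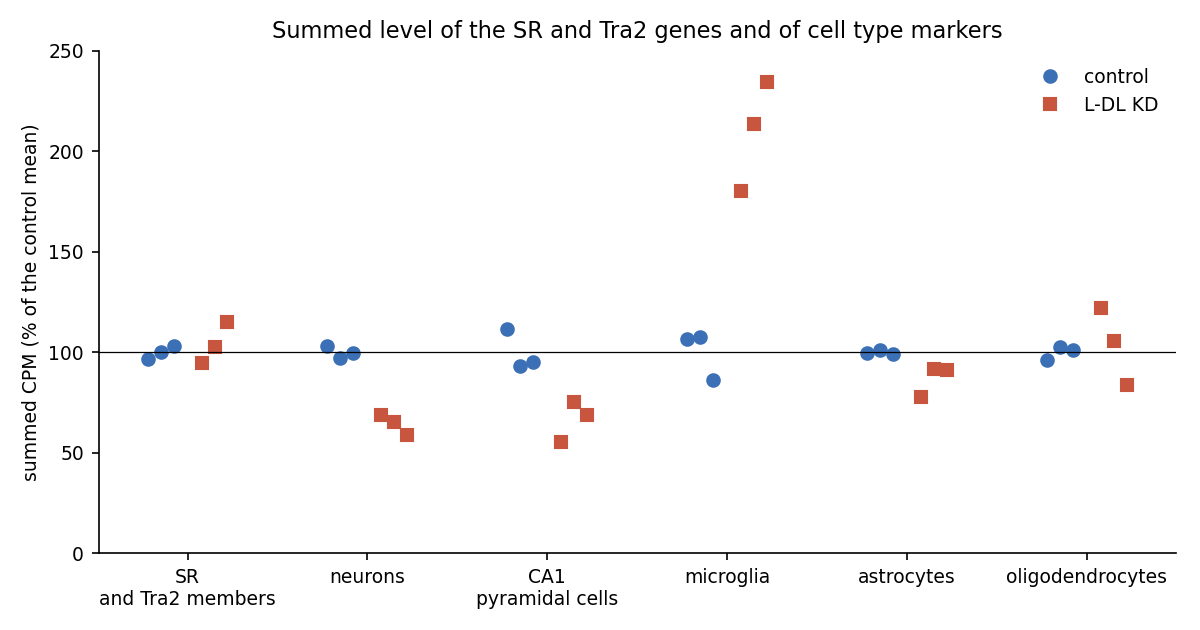
Summed CPM of the 10 SR and Tra2 genes and of the marker lists of 5 cell types in each library, as a percentage of the mean of the control libraries (circles: control, squares: L-DL KD, replicates 1 to 3 from left to right). The SR and Tra2 genes lay between 94.5 and 115% in L-DL KD, while neuronal markers lay between 58.6 and 68.5% and microglial markers between 180 and 235%.

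The comparison of splicing asked whether segments of the same genes were included more or less often. Inclusion is given as percent spliced in (PSI), the inclusion junction count over its effective length as a share of both forms. The splicing table does not number its replicates, and its libraries are named by the order in which they are listed. None of the 25 segments that had enough junction counts passed an adjusted p of 0.05 in edgeR, where 58 of 17769 segments (0.326%) passed over the whole table. An unadjusted p under 0.05 was reached by 4 of the 25, against 13.4% of all tested segments, and PSI did not overlap between the groups for 5, against 18.5%. With limma 2 of the 25 had an unadjusted p under 0.05, against 12.6% of all, and none passed after adjustment, as over the whole table.

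Of the 36 segments, 22 lie in no coding sequence of a protein-coding transcript or bring a premature stop codon. They include a 4-nt site in the leader of Srsf5, which belongs to protein-coding transcripts and leaves the reading frame as it is. Of the 18 of these segments that were tested, 9 had a higher and 9 a lower mean PSI in L-DL KD. The median size of the PSI difference over the 25 tested segments was 2.28 percentage points, and 2.91 points over all tested segments. The 11 segments without a test comprised 7 coding exons that were nearly always included and 4 with too few counts in all or of 1 form, a 64-nt exon of Srsf11 and 3 segments of Srsf4. The Srsf11 exon (chr3:158024698-158024761, minus strand), described here after its values were seen, is annotated in a retained-intron transcript. Its PSI was 86.3, 55.2 and 60.7% in control and 27.5, 41.3 and 37.3% in L-DL KD, a difference of -32.1 percentage points without overlap, on 10 to 24 counts per library.

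The Srsf2 exon had the smallest p of the 25 segments. Its inclusion and skipping counts were 13 and 150, 43 and 198, and 20 and 204 in the control libraries in listed order. In the L-DL KD libraries they were 56 and 173, 49 and 182, and 64 and 195. PSI was thus 4.87, 11.4 and 5.48% in control and 16.1, 13.7 and 16.3% in L-DL KD, and all L-DL KD libraries were higher than all controls. The mean difference was 8.11 percentage points, with a log2 change of the odds of inclusion of 1.23 (SE 0.41, unadjusted p = 0.0112, adjusted p = 0.237 in edgeR), which did not pass. The gene with the higher count in L-DL KD libraries thus also had the higher PSI of the exon that adds an exon junction behind its stop codon, and both measures come from the same libraries.

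In Srsf11 the 117-nt poison exon had the lower PSI in L-DL KD. Inclusion and skipping counts were 55 and 78, 78 and 121, and 68 and 92 in control, and 34 and 95, 39 and 109, and 38 and 80 in L-DL KD. PSI was 28.4, 26.6 and 29.4% in control and 16.8, 16.7 and 21.1% in L-DL KD, without overlap. The difference of -9.92 percentage points (log2 odds change -0.82, SE 0.37, unadjusted p = 0.0448, adjusted p = 0.365 in edgeR) did not pass. The test used the event of this exon with the most counts. In its other listed event, on 35 to 79 counts per library, mean PSI was 96.5% in control and 94.9% in L-DL KD.

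The neighbouring 109-nt exon of Srsf11 was rarer, with 1, 8 and 8 inclusion counts in control and 14, 6 and 9 in L-DL KD. Against skipping of both exons its PSI was 0.738, 3.69 and 4.8% in control and 7.87, 3.09 and 6.12% in L-DL KD, which overlapped (log2 odds change 0.84, SE 0.67, adjusted p = 0.659 in edgeR). With 1 library left out this change ranged from 0.42 to 1.24. As an alternative to the 117-nt exon, the share of the 109-nt exon was 1.84, 9.56 and 10.8% in control and 29.8, 13.7 and 19.6% in L-DL KD, without overlap (1.67, SE 0.74, unadjusted p = 0.0424, adjusted p = 0.36 in edgeR). The 3 tested measures of these exons share junction reads and are not independent of each other. In another listed event of the 109-nt exon, on 12 to 20 counts per library, mean PSI was 29.2% in control and 65.6% in L-DL KD. The groups overlapped there, and that event was not tested. A 76-nt exon of Srsf11 (chr3:158031991-158032066, minus strand), which begins with a stop codon in frame, was included at 0 to 0.825%, on at most 2 inclusion counts per library.

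The Srsf3 poison exon was included at 13.0, 21.8 and 12.3% in control and at 24.3, 21.0 and 21.1% in L-DL KD. The second control library lay within the L-DL KD range. The difference was 6.4 percentage points (log2 odds change 0.64, SE 0.32, unadjusted p = 0.0689, adjusted p = 0.414 in edgeR), on 333 to 441 counts per library.

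In Srsf6 the poison exon and the intron that holds it were measured against the same skipping reads. The 268-nt form was included at 9.09, 5.14 and 10.3% in control and 4.39, 5.64 and 8.64% in L-DL KD (log2 odds change -0.39, SE 0.46, adjusted p = 0.798 in edgeR). With 1 library left out this change ranged from -0.73 to -0.16. The 165-nt form stayed between 1.43 and 3.26% in all libraries. The whole intron of 1283 nt (chr2:162932143-162933425, plus strand) was retained at 49.2, 35.5 and 49.8% in control and 26.5, 37.4 and 37.7% in L-DL KD (-0.66, SE 0.34, unadjusted p = 0.0774, adjusted p = 0.432 in edgeR). The second control library again lay within the L-DL KD range.

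In Srsf5 the 1229-nt intron was retained at 62.3, 63.4 and 72.4% in control and at 44.5, 74.1 and 65.2% in L-DL KD. L-DL KD libraries lay on both sides of the controls, and the sign of the change turned without the first L-DL KD library (log2 odds change -0.29, SE 0.40, with all libraries and 0.24 without it). A shift of the 5′ splice site by 4 nt in the untranslated leader (chr12:80945669-80945672), which leaves the reading frame as it is, was used at 85.6, 85.4 and 86.8% in control and 75.4, 83.3 and 80.9% in L-DL KD. Here the groups did not overlap (-0.62, SE 0.25, unadjusted p = 0.0297, adjusted p = 0.326 in edgeR).

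A further 195-nt segment of Srsf5, at a 3′ splice site (chr12:80947116-80947310), stayed between 0.498 and 0.71% in all libraries on 902 to 1334 counts. The 201-nt intron (chr12:80947595-80947795) stayed between 0 and 0.418%. Inclusion of these segments would leave 46 and 110 of 270 codons.

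The Tra2b poison exon was included at 14.1, 11.6 and 16.2% in control and 17.1, 6.71 and 16.4% in L-DL KD, so that the L-DL KD libraries enclosed the controls (log2 odds change -0.13, SE 0.43, adjusted p = 0.94 in edgeR). Without the second L-DL KD library the change was 0.33. The Tra2a poison exon was included at 0.909, 4.96 and 4.28% in control and 3.7, 7.12 and 4.69% in L-DL KD (0.67, SE 0.60, adjusted p = 0.705 in edgeR). The groups overlapped, with 2 inclusion counts behind the lowest value, and the log2 odds change was 0.20 without the first control library and 0.35 without the second L-DL KD library. In both groups the mean PSI of the exon was higher in Tra2b (13.9 and 13.4%) than in Tra2a (3.38 and 5.17%). The second L-DL KD library had the opposite order (6.71% in Tra2b and 7.12% in Tra2a).

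A retained intron of Tra2a (1238 nt, chr6:49245611-49246848), on 33 to 60 counts per library, lay between 2.08 and 11.9% (log2 odds change 0.48, SE 0.75, adjusted p = 0.855 in edgeR). In Srsf4, exons of 198 nt (chr4:131886107-131886304) and 174 nt, which start at neighbouring 3′ splice sites, were measured against a 143-nt coding exon. The 198-nt form was used at 0 to 4.25%. The 174-nt form was used at 9.36, 7.27 and 10.6% in control and 17.4, 8.47 and 22.8% in L-DL KD (0.90, SE 0.53, adjusted p = 0.503 in edgeR), with the second L-DL KD library inside the control range.

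Of the other tested segments, 3 had the smallest p of their gene. A 36-nt coding exon of Srsf7 (chr17:80202169-80202204, minus strand), which lengthens the protein from 215 to 227 codons, was included at 84.0, 87.7 and 84.2% in control and 86.0, 77.9 and 81.1% in L-DL KD (log2 odds change -0.38, SE 0.34, adjusted p = 0.706 in edgeR). A 6-nt extension at a 5′ splice site of Tra2a was used at 91.4, 89.8 and 89.6% in control and 87.7, 88.9 and 83.9% in L-DL KD, without overlap (-0.48, SE 0.35, unadjusted p = 0.195, adjusted p = 0.617 in edgeR). A 187-nt coding exon of Srsf1 was included at 94.5 to 100% in all libraries (1.32, SE 0.89, adjusted p = 0.577 in edgeR). The last 4 tested segments, at a 21-nt 3′ splice site shift of Srsf11, a 3-nt shift of Srsf5 and pairs of coding exons of Srsf6 and Tra2a, had PSI differences of -2.28 to 0.953 points, and all of them overlapped between the groups. Each exon of these pairs was itself included at 99.7 to 100% in all libraries, so that the pairs are not alternatives to each other.

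**Figure D5:**
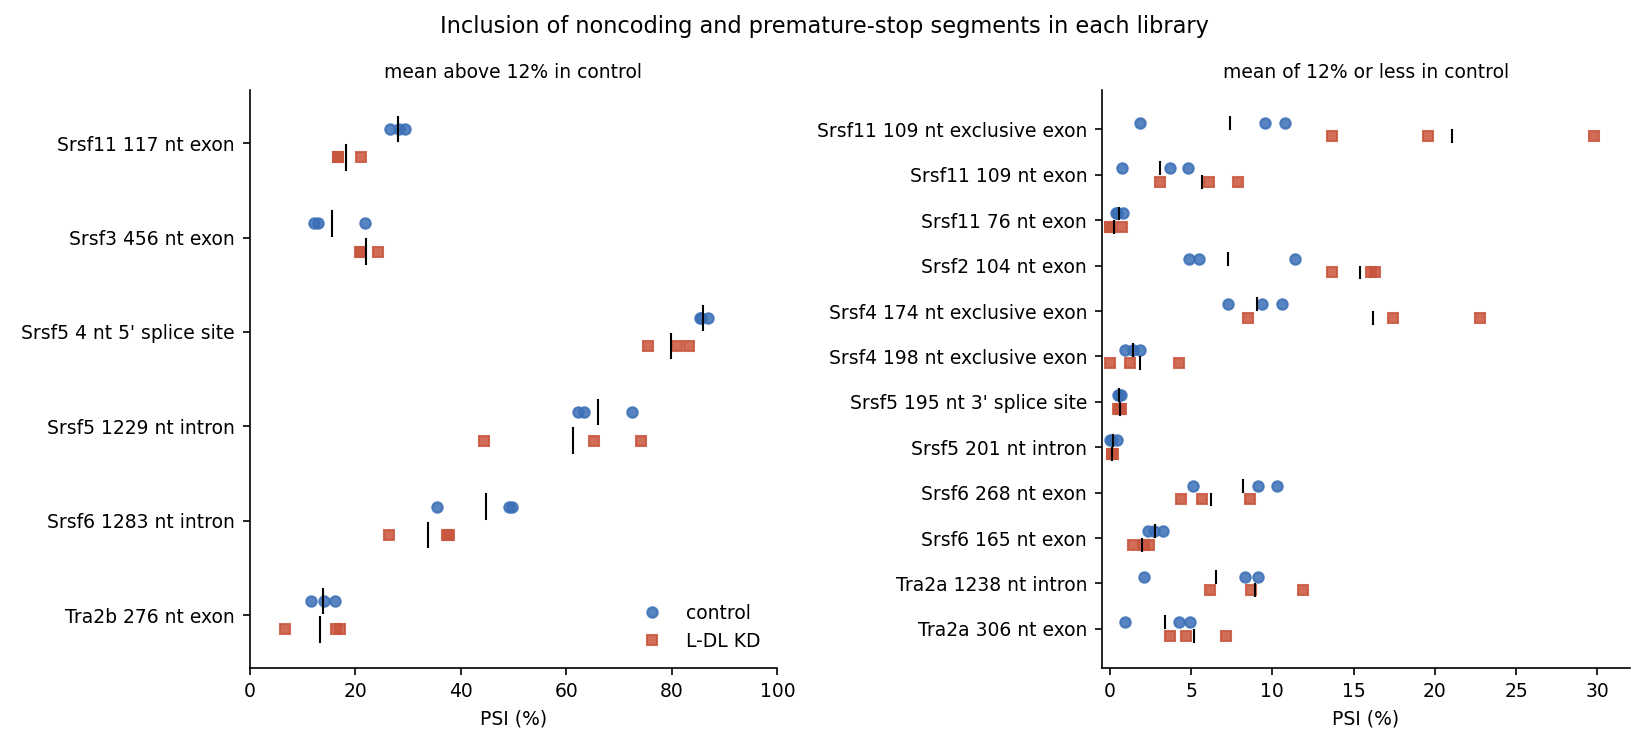
PSI, in percent, of the 18 tested segments that lie in no coding sequence or bring a premature stop codon, in each control library (circles) and each library labelled L-DL KD (squares), with group means as black lines; segments with a control mean above 12% are on the left, the others on the right on an expanded axis. The 117-nt exon of Srsf11 lay lower in all L-DL KD libraries (16.7 to 21.1% against 26.6 to 29.4%) and the 104-nt exon of Srsf2 higher (13.7 to 16.3% against 4.87 to 11.4%), neither with an adjusted p under 0.05.

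The poison segments had no single direction of change. Set beside the expression values, count and PSI differed in sign in most of the genes below. They had the same sign in Srsf2 and for the 117-nt exon of Srsf11. In Srsf2 the mean gene count and the PSI of the 104-nt exon were both higher in L-DL KD. In Srsf11 the count and the PSI of the 117-nt exon were lower, while the PSI of the 109-nt exon was higher. In Srsf6 and Srsf5 the count was higher and the retention of the long intron lower, and in Tra2b the count was higher and the PSI of the poison exon lower. In Srsf3, Tra2a and Srsf4 the count was lower and the PSI of the poison exon (in Srsf4 the share of the 174-nt exon against a coding exon) higher. The signs of the Srsf5 intron, of the Tra2b poison exon and of the counts of Tra2a and Tra2b did not hold with a library left out. No such segment of Srsf1 or Srsf7 was among the listed events. Of all these values the count of Srsf2 alone passed its test. PSI rests on junction reads and the gene count on all reads of the same 6 libraries, so that the pairs are a description with no test.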

How the data were processed

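The authors deposited read counts per Ensembl gene, without normalization, and the junction counts of rMATS for each splicing event, after alignment to GRCm38. The submitters' processing notes name HISAT2 2.1.0, HTSeq 0.6.1 and Bowtie 1.1.2, and the strand setting is not given in the sources used here. The authors' p-values, FDR and inclusion levels in the splicing table were not used. Its first group was taken as L-DL KD, since the methods define the PSI change as KD minus control and the table's difference is the first group minus the second.

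Gene counts were tested with edgeR 4.0.16 (TMM, quasi-likelihood) where 10 counts or more were reached in 3 or more libraries. Inclusion and skipping counts were tested in edgeR with library, inclusion and inclusion-by-group terms, for 1 event per segment where libraries averaged 20 counts or more, and 1 or more of each form. Both were adjusted by Benjamini-Hochberg over all tested features (threshold 0.05). In simulated data of this design, 200 of 17396 genes and 182 of 17068 segments were changed. There edgeR recovered 88% of genes with a log2 change of 1 and 43% of those with 0.5. Of the changed segments it recovered 59.9%. Recovery of segments at log2 odds changes of the sizes reported here was not tested. Segments were read against GENCODE M21 (GRCm38), of which 52403 of 52550 gene IDs had a symbol. R 4.3.3, limma 3.58.1, DESeq2 1.42.0 and Python 3.11.15 were used. Alternatives were DESeq2, other scalings and filters, limma on log2 ratios with a pseudocount of 0.5, all events kept apart, a replicate block and each library left out. Between 6760349 and 7939931 junction counts per library set the precision of PSI.

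The 10 genes and the lists were chosen with earlier results of these data known. Named are all 10 genes, every tested segment that lies in no coding sequence or brings a premature stop codon, any other with an adjusted p under 0.05, the segment of smallest p per gene, up to 3 genes per list by smallest p and the 5 genes of most similar pattern. Clk genes, Son and Srrm2 were named after their values were seen.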

Additional observations from a re-analysis of the deposited data

How the results depend on the processing

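The number of the 10 genes that passed was 1 with all libraries in edgeR, 1 with DESeq2 size factors, with no filter or with the block below, and 2 with DESeq2 (Srsf2 and Srsf11) or with scaling by library size (Srsf2 and Srsf6). With 1 library left out it ranged from 0 to 3, and the count over all tested genes from 3498 to 6477. The log2 fold change of Hnrnpdl then ranged from -0.13 to 0.15, with -0.00 without control replicate 3 and -0.13 without L-DL KD replicate 1. That of Tra2a ranged from -0.21 to 0.10, its value without L-DL KD replicate 1, and that of Tra2b from -0.00, its value without L-DL KD replicate 3, to 0.23. With replicate number as a block, 4635 genes and 1 of the 10 passed. Deviations of libraries with the same number correlated at 0.0535, 0.127 and -0.107, so the numbers were not taken to pair the mice, and the cause of the lower count was not tested. No paired analysis was possible because the splicing table carries no replicate numbers, as far as inclusion is concerned.

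None of the tested SR and Tra2 segments passed under any setting run. Over all tested segments 58 passed in edgeR, 0 in limma, and 48 to 60 under other filters or with all events kept apart. With 1 library left out, 0 to 63 passed, with 3, 8 and 0 without the first, the second or the third control library and 5 and 17 without the second or the third L-DL KD library. Signs turned for some segments, none of which had passed. In limma the 198-nt exon of Srsf4 had -0.06 and the 201-nt intron of Srsf5 0.41 on the log2 scale. With 1 library left out, the 195-nt segment of Srsf5 had -0.04 without the first control or the first L-DL KD library, its 201-nt intron 1.17 without the third control library and its 1229-nt intron 0.24 without the first L-DL KD library. The Tra2a intron had -0.03 without the first control library, the Tra2b poison exon 0.33 without the second L-DL KD library and the 198-nt exon of Srsf4 -1.12 without the third. Without effective lengths, PSI differences grew to 11.9 points for the Srsf2 exon, -12.7 for the 117-nt exon of Srsf11 and -1.51 for the 165-nt exon of Srsf6, by construction. With the longest coding transcript as length, 3 of the 10 genes kept their rank. Inclusion counts of at most 25 per library limit PSI of the poison exon and the retained intron of Tra2a and of the 109-nt exon of Srsf11.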
